A study of Homo sapiens with 6 samples.

Results

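Glycolysis turns glucose into pyruvate and lactate, and many of its genes are also induced when oxygen is scarce. The glycolysis and hypoxia response genes described here are 34 genes chosen by name and role, with earlier results of these data known. They comprise 2 glucose transporters, 15 genes for the enzymes from hexokinase to pyruvate kinase, 4 genes for lactate dehydrogenase and lactate transport, 3 regulators of flux, 4 genes of the oxygen-sensing machinery and 6 well-known hypoxia targets. All 34 were among the 19225 genes listed and among the 12884 that were tested, whose mean was 0.5 FPKM or more. FPKM relates the reads on a gene to gene length and to library size.

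The RNA came from SW480, a human colon cancer line whose p53 is mutant, and was sequenced from 3 control libraries and 3 MDM4 libraries, numbered as replicates 1 to 3 in each group. The labels give plasmid transfection for the samples of both groups, and in the MDM4 group the plasmid, transfected transiently, encoded MDM4, a p53-binding relative of MDM2. What the control cells received is not named in the labels, which call the other group "exercised". Every library thus comes from 1 cell line that lacks wild-type p53, and the time from transfection to harvest is not given in the sources used here. Nothing states that the replicates were separate cultures, so p-values measure only the spread between these libraries, which may be technical.

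In normoxic cells prolyl hydroxylases mark the HIF alpha subunits for destruction, and when oxygen falls the subunits pair with ARNT and bind short DNA elements with the core letters ACGTG or GCGTG near their target genes. Most enzymes of glycolysis, the main glucose transporter and several regulators of mitochondria and vessel growth are such targets. Cancer cells often keep glycolysis high in the presence of oxygen, a trait for which colon cancer lines are well known. HIF alpha subunits are controlled mainly as proteins, which RNA sequencing does not measure.

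In the control, *MDM4* itself had 6.35, 7.09 and 5.13 FPKM (replicates 1 to 3), and in the MDM4 libraries 188, 185 and 56.3 FPKM. Its lowest MDM4 library was 7.94-fold above its highest control library, but MDM4 replicate 3 held less of it than the others. The log2 difference was 4.33, with an adjusted p of 0.161 in limma without a block and 4.77e-05 with the replicate number as a block. Between 32921704 and 44562216 reads lay on genes per library, and between 351 (*ANKRD37*) and 238274 (*GAPDH*) of them on a single member. Of the 11 colon epithelial markers, the keratins *KRT8*, *KRT18* and *KRT19* were abundant, at 1726, 1612 and 991 FPKM on average. *EPCAM*, *CDH1*, *CDX2* and *VIL1* averaged 161, 21.5, 12.1 and 2.91 FPKM. *CEACAM5*, *LGR5* and *CDX1* were under 0.5 FPKM in every library, and the keratin *KRT20* was between 0.198 and 0.591 FPKM. Of 10 markers of leukocytes, endothelium and fibroblasts, *PTPRC*, *PECAM1*, *COL1A2* and *DCN* were at or near 0. *CD68*, *ACTA2* and *COL1A1* averaged 4.59, 3.37 and 2.55 FPKM, and *CD14*, *VWF* and *CD3E* 0.574, 0.456 and 0.120 FPKM. The list summed to between 9.74 and 12.01 FPKM in replicates 1 and 2 and between 12.9 and 13.9 FPKM in replicate 3.

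The genes took a large part of the transcriptome. Together the 34 members made up between 3.26% and 3.68% of all FPKM in a library, and the enzymes of glycolysis alone between 2.34% and 2.63%. *GAPDH*, the dehydrogenase of the middle of the pathway, was the most abundant of all genes, ranking 1 by mean FPKM, with 0.861% to 0.929% of the total by itself. *ENO1*, *LDHA*, *ALDOA*, *PKM* and *TPI1* ranked 10, 13, 24, 28 and 41. The hypoxia targets were lower, from *NDRG1* at rank 240 down to *CA9* at rank 5953. Several members have processed copies in the genome, with 62 pseudogenes named after *GAPDH*, 39 after *BNIP3* and 13 after *PGAM1* in GENCODE release 29, none of them listed in the table, and how reads shared with such copies were counted is not given in the sources used here.

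**Figure D1:**
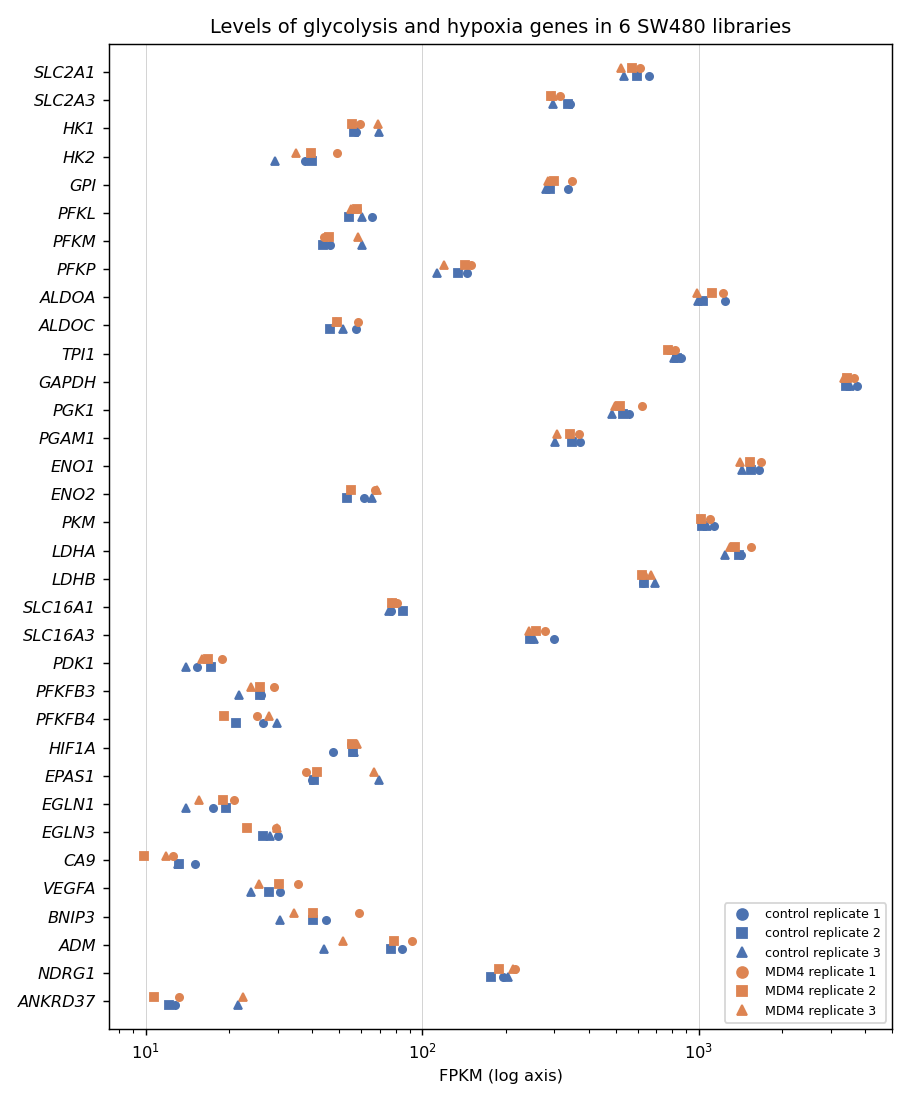
FPKM of each of the 34 genes on a log axis, 1 point per library, with colour for the group and shape for the replicate number. The levels run from 9.87 FPKM (*CA9*, MDM4 replicate 2) to 3728 FPKM (*GAPDH*, control replicate 1), and for most genes the groups lie on top of each other.

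The promoters of the 3 members that were most above and the 3 that were most below the other libraries in replicate 3 are shown, since HIF acts through the core letters and these are the members that moved most. Each is the 250 bases before the start of the gene on its own strand, 5′ to 3′, from RefSeq on GRCh38.p14. Capitals mark ACGTG or GCGTG read on either strand, so that CACGT and CACGC are capitals too, and CACGTG, also the E box of MYC-type factors, counts as a match on each strand.
ANKRD37, chr4:185396591-185396840, plus strand: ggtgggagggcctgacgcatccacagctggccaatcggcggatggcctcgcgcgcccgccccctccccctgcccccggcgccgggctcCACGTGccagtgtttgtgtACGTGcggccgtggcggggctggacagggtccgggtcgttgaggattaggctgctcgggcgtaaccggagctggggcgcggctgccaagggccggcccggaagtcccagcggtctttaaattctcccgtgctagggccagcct
EPAS1, chr2:46297157-46297406, plus strand: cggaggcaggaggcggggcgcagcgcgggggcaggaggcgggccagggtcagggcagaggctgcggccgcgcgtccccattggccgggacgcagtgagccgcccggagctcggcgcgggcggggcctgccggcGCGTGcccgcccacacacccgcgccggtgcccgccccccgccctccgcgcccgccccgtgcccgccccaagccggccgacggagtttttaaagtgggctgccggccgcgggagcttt
PFKM, chr12:48105623-48105872, plus strand: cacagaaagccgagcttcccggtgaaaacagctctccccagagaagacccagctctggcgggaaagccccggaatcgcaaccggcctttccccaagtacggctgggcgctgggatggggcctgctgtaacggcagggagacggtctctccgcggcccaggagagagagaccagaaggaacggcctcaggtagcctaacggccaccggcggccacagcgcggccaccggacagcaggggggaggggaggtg
ADM, chr11:10304823-10305072, plus strand: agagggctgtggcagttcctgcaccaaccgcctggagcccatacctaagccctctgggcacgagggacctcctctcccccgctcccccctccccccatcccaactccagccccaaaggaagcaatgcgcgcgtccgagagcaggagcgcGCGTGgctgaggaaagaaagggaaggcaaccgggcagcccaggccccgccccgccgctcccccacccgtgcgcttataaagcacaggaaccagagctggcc
BNIP3, chr10:131981924-131982173, minus strand: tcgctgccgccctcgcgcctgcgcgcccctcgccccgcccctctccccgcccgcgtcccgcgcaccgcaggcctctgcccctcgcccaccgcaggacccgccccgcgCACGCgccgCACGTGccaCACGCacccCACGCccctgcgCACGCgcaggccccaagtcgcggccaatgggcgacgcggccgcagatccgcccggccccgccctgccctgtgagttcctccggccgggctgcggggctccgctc
EGLN1, chr1:231422288-231422537, minus strand: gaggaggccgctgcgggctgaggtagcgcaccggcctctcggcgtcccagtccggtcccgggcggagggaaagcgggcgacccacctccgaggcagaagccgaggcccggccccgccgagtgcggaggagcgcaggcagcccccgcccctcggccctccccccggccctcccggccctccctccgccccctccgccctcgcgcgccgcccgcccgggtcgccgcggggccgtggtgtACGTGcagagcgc
The *BNIP3* window held 6 matches and that of *ANKRD37* 3, those of *EPAS1*, *ADM* and *EGLN1* 1 each, and that of *PFKM* 0. *SLC2A3*, *SLC16A1*, *VEGFA* and *NDRG1* had no entry in the promoter table. Of the other 30 members, 19 (63.3%) held the core in this window, against 57.2% of 10026 tested genes and 43.2% of all 35116 promoters. The letters ACGTG alone were in 12 of the 30 windows (40%), against 23.2% of tested genes and 18.5% of all promoters. A match is a run of letters, not a shown binding site.

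The study compared MDM4-transfected with control cells to ask what MDM4 does where p53 is mutant. Its own analysis reported up-regulated and down-regulated genes, by a test that its methods do not name and that may differ from limma. For glycolysis and hypoxia genes, no member passed the limma test used here. The members' median log2 difference was -0.00078, against -0.0091 over all genes, with 17 members above and 17 below 0. Differences ranged from -0.27 (*CA9*) to 0.20 (*HK2*). With limma and Benjamini-Hochberg adjustment, 0 of 34 members and 0 of 12884 genes (0%) had an adjusted p under 0.05, and at an unadjusted p under 0.05 the counts were 0 members and 222 genes (1.72%). *MDM4* itself, with a log2 difference of 4.33, was among the genes not called in this fit (adjusted p = 0.161 in limma). The absence of calls here thus does not show that no gene differed. With voom on recovered reads the count was again 0 for members and for all genes.

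*SLC2A1*, the main glucose transporter of most cancer cells, was at 661, 598 and 537 FPKM in the control and at 613, 573 and 525 FPKM in the MDM4 replicates, here and below in the order of replicates 1 to 3. *SLC2A3*, a transporter with high affinity for glucose, was at 341, 337 and 297 FPKM in the control and at 315, 291 and 296 FPKM in the MDM4 replicates. Both were lower in the MDM4 library of every same-numbered pair, yet the groups overlapped, and the log2 differences of -0.07 ± 0.09 and -0.11 ± 0.07 (SE, n = 3 per group) were within the spread.

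*HK2*, the inducible hexokinase that traps glucose in the cell, was at 37.7, 39.9 and 29.4 FPKM in the control and at 49.1, 39.4 and 34.8 FPKM in the MDM4 replicates. MDM4 replicate 1 stood above the other 5 libraries, the libraries of replicate 2 were level, and the log2 difference was 0.20 ± 0.16. *GAPDH* was at 3728, 3408 and 3512 FPKM in the control and at 3626, 3428 and 3348 FPKM in the MDM4 replicates, a log2 difference of -0.03 ± 0.05 with a 95% interval from -0.16 to 0.09. The study lists primers for it among those of its quantitative PCR, and they are shown since they place that amplicon on the most abundant member.
GAPDH forward primer: ggtgtgaaccatgagaagtatga
GAPDH reverse primer: gagtccttccacgataccaaag
Both matched 10 of 11 *GAPDH* transcripts of GENCODE release 29, with ends at chr12:6537173-6537387 (GRCh38) and an amplicon of 123 bases across a splice junction, or of 215 bases where the ends share 1 exon. The other enzyme genes had log2 differences between -0.07 (*TPI1*) and 0.08 (*ENO2*), none past the test.

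*LDHA*, which makes lactate from pyruvate, was at 1424, 1402 and 1246 FPKM in the control and at 1540, 1357 and 1292 FPKM in the MDM4 replicates, with a log2 difference of 0.04 ± 0.08. *LDHB* and the lactate transporters *SLC16A1* and *SLC16A3* had log2 differences between -0.03 and -0.01. *PDK1*, a kinase that keeps pyruvate out of mitochondria, had the largest difference among the flux regulators, 0.15 ± 0.11.

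*CA9*, the membrane carbonic anhydrase used as a marker of hypoxia, was the only member whose groups did not overlap. It was at 15.1, 13.1 and 13.1 FPKM in the control and at 12.6, 9.87 and 11.9 FPKM in the MDM4 replicates. All MDM4 libraries were thus under the lowest control library, as was so for 3.76% of all genes. The log2 difference was -0.27 ± 0.12, with a 95% interval from -0.56 to 0.02, an unadjusted p of 0.0612 and an adjusted p of 1 in limma.

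Of the other hypoxia targets, 4 had log2 differences above 0 (0.10 to 0.19) and *ANKRD37* had -0.02, none of them past the test. *BNIP3*, which directs mitochondria to autophagy, was at 44.8, 40.2 and 30.6 FPKM in the control and at 59.0, 40.3 and 34.2 FPKM in the MDM4 replicates. *VEGFA*, the vessel growth factor, was at 30.5, 27.9 and 24.1 FPKM against 35.4, 30.2 and 25.7 FPKM. In *BNIP3*, *VEGFA*, *ADM* and *NDRG1* the MDM4 library was the higher one of every same-numbered pair, while the groups as a whole overlapped. The same held for *GPI*, *PFKP* and *ENO2*, which makes 7 of 34 members (background 16.6% of genes). *SLC2A1*, *SLC2A3*, *TPI1*, *PKM*, *LDHB*, *PFKFB4* and *CA9* were the lower one of every pair, again 7 of 34 (background 18.6%).

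With the replicate number as a block, still no member passed (background 0.0155%), with the lowest adjusted p at 0.294 for *CA9*. At an unadjusted p under 0.05 in that fit there were 6 members against 1624 genes (12.6%), namely *CA9* as lower and *HK2*, *BNIP3*, *VEGFA*, *ADM* and *NDRG1* as higher, with adjusted p-values in limma from 0.294 to 0.391. Over replicates 1 and 2 alone, where *MDM4* was most abundant, 0 members and 69 genes (0.536%) passed. The 95% intervals of all 34 members lay within 1 log2 unit without the block, and within 0.5 with it, the outermost bounds being -0.441 (*CA9*) and 0.373 (*HK2*).

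**Figure D2:**
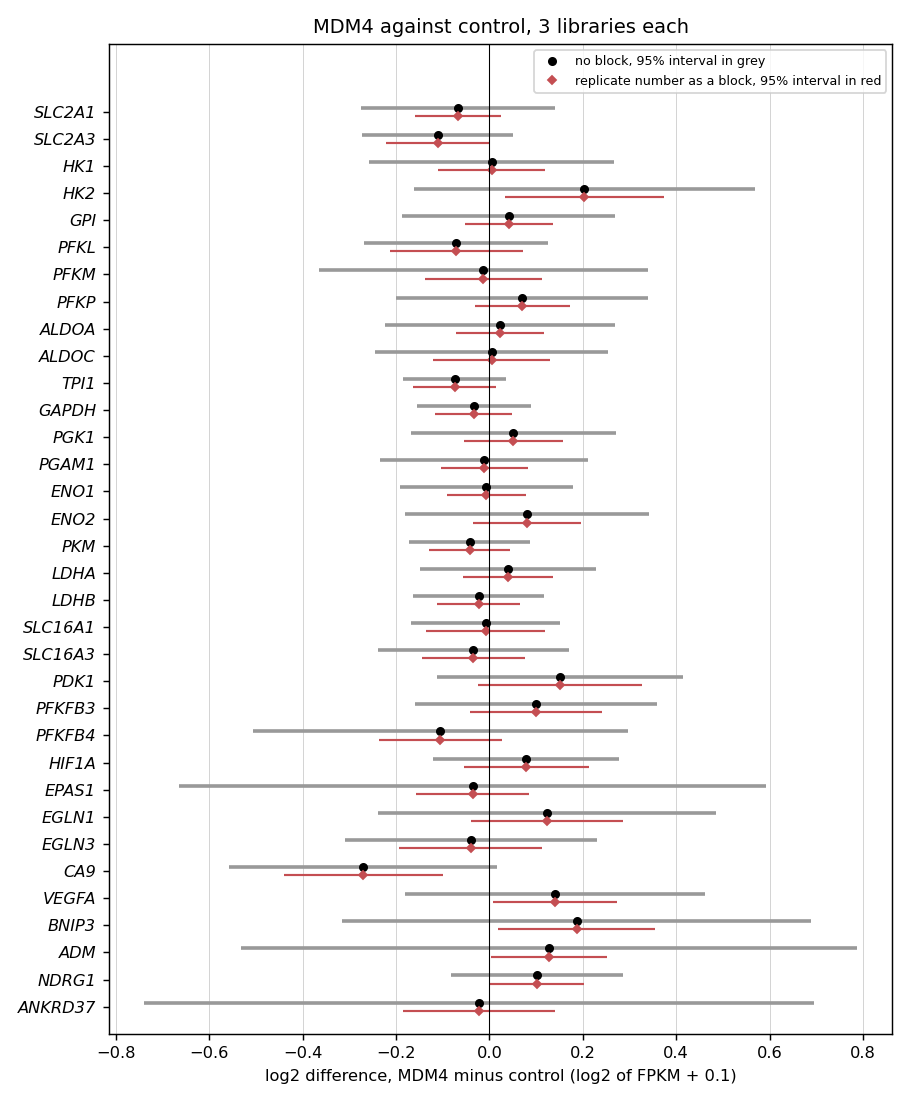
Log2 difference between MDM4 and control libraries for each gene (3 libraries per group), with the 95% interval without a block (grey) and with the replicate number as a block (red). Points lie between -0.27 and 0.20 around 0, and every grey interval crosses 0.

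Replicate number set more members apart than MDM4 did, with *EPAS1* and *ANKRD37* higher and *ADM* and *BNIP3* lower in replicate 3 of both groups. Replicate 3 of both groups was known to stand apart from replicates 1 and 2 across the transcriptome, and it was taken up for that reason, so the p-values below describe this split of the libraries and are not a search for one. No label says what differed between the replicates, and the replicate number may be a day, a passage or a library batch. Of the 34 members, 6 were higher in replicate 3 (background 29.6% of genes) and 13 were lower (background 14.6%), 19 in all (background 44.1%), by limma at an adjusted p under 0.05. The members' median log2 difference was -0.09, against 0.09 for all genes, with 10 members above and 24 below 0. In the control libraries alone the members' median was -0.10 and in the MDM4 libraries alone -0.11, and 31 of 34 members had the same sign in both. In bulk RNA, fewer cells that express a gene and less RNA per cell cannot be told apart.

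The split depended on scaling. With median ratio scaling in place of FPKM as deposited, 4 members were higher (background 20.4%) and 20 lower (background 21.5%), and *LDHB* and *PFKFB4* no longer passed. The 7 members that passed as lower with this scaling and not with FPKM as deposited were *SLC2A3*, *GPI*, *TPI1*, *GAPDH*, *SLC16A1*, *SLC16A3* and *PDK1*. No member changed by more than 1 log2 unit with an adjusted p under 0.05, as 2.54% of genes did. Replicate 3 lay outside the range of the other 4 libraries for 21 members (background 55.7%), above it for 7 (background 37.3%) and below it for 14 (background 18.4%).

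**Figure D3:**
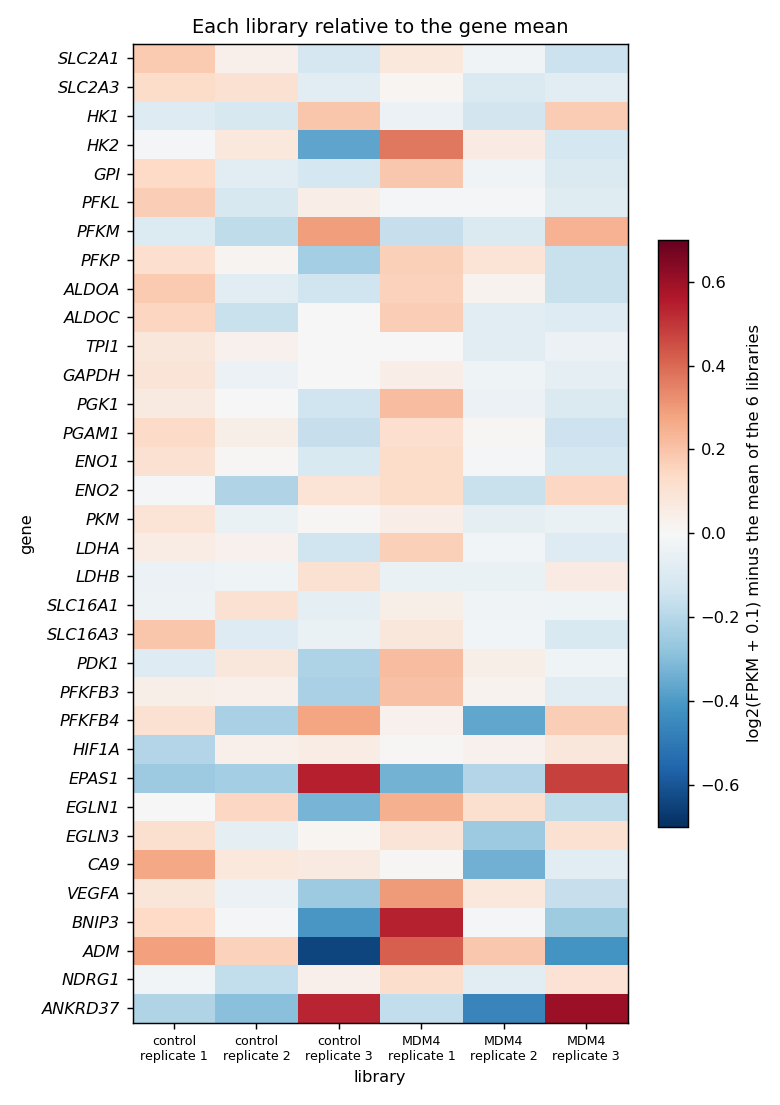
Log2(FPKM + 0.1) of each gene in each library minus the mean of the gene over the 6 libraries, red above and blue below the mean. The columns of replicate 3 are alike in both groups, with *EPAS1*, *PFKM* and *ANKRD37* in red and *ADM*, *BNIP3* and *EGLN1* in blue.

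In replicate 3 a glucose transporter fell and the hexokinases went in opposite directions. *SLC2A1* fell in replicate 3, from 573 to 661 FPKM in the other 4 libraries to 537 and 525 FPKM (log2 -0.20 ± 0.05, adjusted p = 0.0103 in limma). *HK1*, the housekeeping hexokinase, was at 57.4, 56.6 and 69.8 FPKM in the control and at 59.4, 55.8 and 69.1 FPKM in the MDM4 replicates. It rose in replicate 3 (log2 0.28 ± 0.05, adjusted p = 0.00196 in limma), with no overlap with replicates 1 and 2. *HK2* fell there (log2 -0.37 ± 0.08, adjusted p = 0.00461), again with no overlap. Summed hexokinase was 98.9 FPKM on average in replicates 1 and 2 and 102 FPKM in replicate 3, so the total moved little while the part of *HK2* went from 41.9% to 31.6%.

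The phosphofructokinases, which commit sugar to glycolysis, parted in the same manner. *PFKM*, the muscle form, was at 46.3, 43.7 and 60.6 FPKM in the control and at 44.2, 46.1 and 58.6 FPKM in the MDM4 replicates, and rose in replicate 3 (log2 0.40 ± 0.06, adjusted p = 0.000301 in limma). *PFKP*, the platelet form and the most abundant of the 3, was at 144, 135 and 113 FPKM in the control and at 150, 142 and 120 FPKM in the MDM4 replicates, and fell (log2 -0.30 ± 0.05, adjusted p = 0.00105). *PFKL*, the liver form, was between 54.1 and 65.9 FPKM with replicate 3 inside that range.

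In the lower part of the pathway the called members fell by small amounts. *ALDOA*, the main aldolase, was at 1239, 1036 and 991 FPKM in the control and at 1222, 1111 and 981 FPKM in the MDM4 replicates (log2 -0.22 ± 0.07, adjusted p = 0.0227 in limma). *PGAM1*, the phosphoglycerate mutase, was at 371, 348 and 303 FPKM against 368, 341 and 306 FPKM (log2 -0.23 ± 0.05, adjusted p = 0.00402). Replicate 3 was the lowest library of its group for both genes. *PGK1* and *ENO1*, which act on either side of that mutase, fell with log2 differences of -0.18 and -0.17 (adjusted p = 0.0405 and 0.0182 in limma). Neither passed with quantile normalization or with eBayes without trend. Across the 15 enzyme genes, 2 rose (background 29.6%), 6 fell (background 14.6%) and 7 did not pass, and *GAPDH* (-0.05), *PKM* (-0.03) and *TPI1* (-0.03) were among the latter. With median ratio scaling *GAPDH* and *TPI1* passed as lower too, at -0.14 and -0.12 with adjusted p-values of 0.0374 and 0.0431.

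*LDHA* fell and *LDHB*, the form that favours use of lactate, rose. *LDHA* was at 1246 and 1292 FPKM in replicate 3 of control and MDM4 and between 1357 and 1540 FPKM in the others (log2 -0.17 ± 0.05, adjusted p = 0.0212 in limma). *LDHB* was at 695 and 673 FPKM in replicate 3 and between 625 and 632 FPKM in the others (log2 0.12 ± 0.04, adjusted p = 0.0301), a rise that shrank to 0.03 with median ratio scaling. The lactate transporters *SLC16A1* and *SLC16A3* had log2 differences of -0.07 and -0.12 and did not pass, but with median ratio scaling they did, at -0.16 and -0.21 with adjusted p-values of 0.0489 and 0.0338. Of the kinases that set fructose 2,6-bisphosphate, an activator of phosphofructokinase, *PFKFB3* fell (-0.23 ± 0.07) and *PFKFB4* rose (0.34 ± 0.11, adjusted p = 0.0328 in limma). *PFKFB4* was at 26.6, 21.1 and 29.9 FPKM in the control and at 25.2, 19.2 and 27.9 FPKM in the MDM4 replicates. Its replicates 1 and 2 thus differed about as much, by log2 0.33 in control and 0.40 in MDM4. *PDK1* at -0.19 ± 0.08 did not pass (adjusted p = 0.078 in limma, and 0.0188 with median ratio scaling).

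The oxygen sensors and HIF subunits held one of the largest changes. *EPAS1*, which encodes HIF-2 alpha, was at 40.0, 40.5 and 69.7 FPKM in the control and at 38.0, 41.4 and 66.6 FPKM in the MDM4 replicates. It was 1.70-fold higher in replicate 3 (log2 0.77 ± 0.06, adjusted p = 1.2e-05 in limma), and replicates 1 and 2 of both groups lay close together, far below it. *HIF1A*, for HIF-1 alpha, was at 47.4, 56.0 and 56.7 FPKM and at 55.0, 55.8 and 57.9 FPKM, highest in the replicate 3 libraries, and its log2 difference of 0.10 ± 0.07 did not pass. *EGLN1*, the main prolyl hydroxylase of HIF, was at 17.5, 19.5 and 14.0 FPKM against 20.9, 19.0 and 15.6 FPKM and fell (log2 -0.38 ± 0.07, adjusted p = 0.00221). *EGLN3*, a hydroxylase that is itself a HIF target, was between 23.2 and 30.0 FPKM, lowest in replicate 2 of both groups, and did not pass (log2 0.09 ± 0.10).

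Of the 6 hypoxia targets, 1 rose (background 29.6%), 3 fell (background 14.6%) and 2 did not pass in replicate 3. *ANKRD37*, an ankyrin-repeat gene induced by HIF, was at 12.8, 12.1 and 21.5 FPKM in the control and at 13.1, 10.7 and 22.4 FPKM in the MDM4 replicates, a 1.80-fold rise (log2 0.85 ± 0.09, adjusted p = 6.46e-05 in limma). *ADM*, the vasodilator peptide adrenomedullin, was at 84.1, 77.2 and 44.2 FPKM and at 92.1, 78.7 and 51.6 FPKM, a fall to 0.577 of its level (log2 -0.79 ± 0.07, adjusted p = 3.36e-05). These genes, both used as readouts of HIF, thus went in opposite directions in the same libraries.

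*BNIP3* fell to 0.711 (log2 -0.49 ± 0.12, adjusted p = 0.0074 in limma) and *VEGFA* to 0.805 (log2 -0.31 ± 0.08, adjusted p = 0.00724). *NDRG1*, a stress gene often used as a hypoxia marker, was at 196, 177 and 204 FPKM in the control and at 217, 189 and 213 FPKM in the MDM4 replicates, and *CA9* had a log2 difference of -0.01 ± 0.11. Neither passed, and replicate 3 lay within the range of the others for both. Of the members that rose in replicate 3 and have a promoter entry, 3 of 6 (50%) held the HIF core in the 250-base window. Of those that fell 9 of 12 (75%) did, against 57.2% of tested genes and 63.3% of members. These are few genes, and a link between the core and the direction was not tested.

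**Figure D4:**
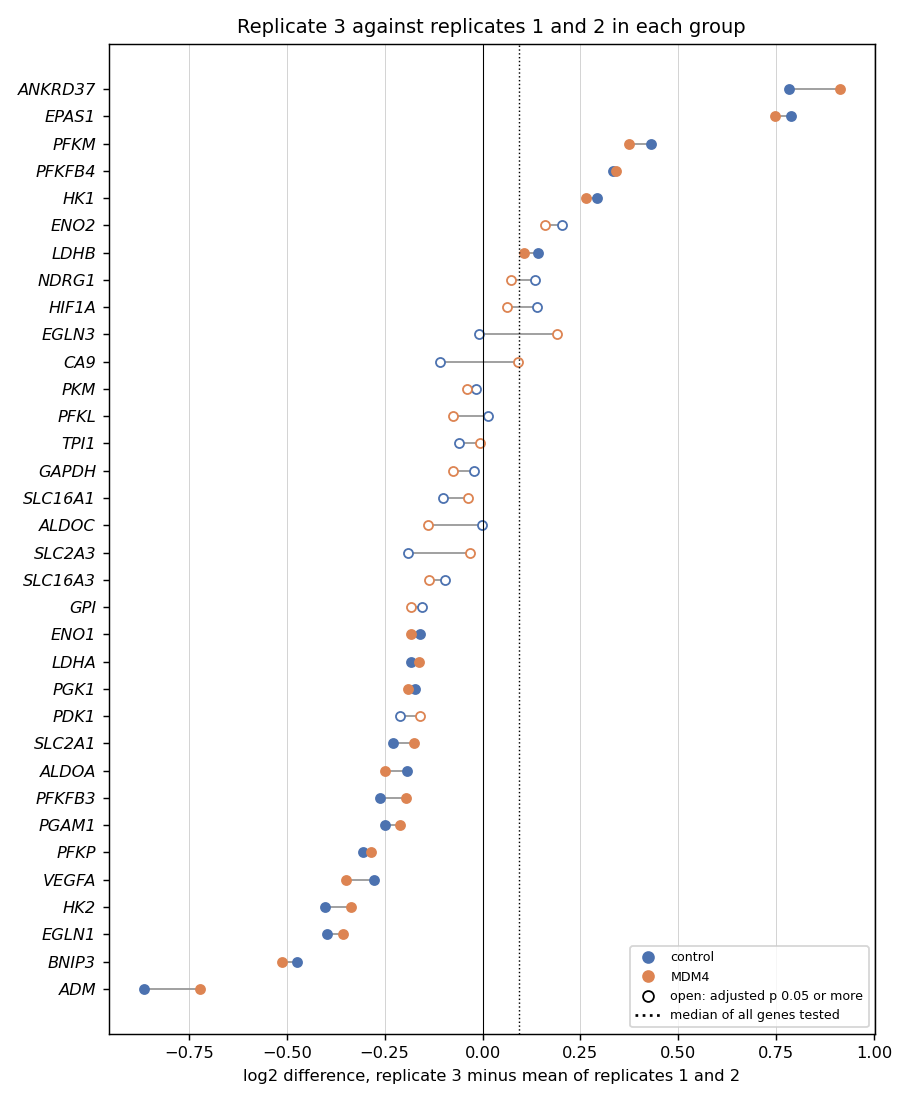
Log2 difference between replicate 3 and the mean of replicates 1 and 2 within the control (blue) and within the MDM4 libraries (orange), with open points for genes with an adjusted p of 0.05 or more in the joint fit and a dotted line at the median of all genes tested (0.09). The groups give nearly the same value for most genes, from 0.91 for *ANKRD37* in MDM4 to -0.87 for *ADM* in the control.

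Within replicates 1 and 2, members differed by replicate number as well, a pattern noticed after the values were seen and given without a test. Replicate 1 was above replicate 2 in both groups for 26 of 34 members (background 22.4% of genes) and below it in both for 2 (background 22.6%). The members' median log2 difference between replicates 1 and 2 was 0.10 in control and 0.14 in MDM4 libraries, against 0.01 and -0.01 for all genes. *BNIP3* was at 44.8 and 40.2 FPKM in control replicates 1 and 2 and at 59.0 and 40.3 FPKM in the MDM4 ones. *ALDOA* was at 1239 and 1036 FPKM and at 1222 and 1111 FPKM. The glycolytic enzymes took 2.56%, 2.41% and 2.34% of all FPKM in control replicates 1 to 3 and 2.63%, 2.41% and 2.34% in the MDM4 ones.

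Of the 19 members called, 6 were called under each of the 16 alternatives that were run, *ADM*, *ANKRD37*, *EPAS1*, *PFKM*, *PFKP* and *EGLN1*, apart from a fold threshold of 1 log2 unit, which no member met. No called member changed direction. With control or MDM4 replicate 3 left out, fewer members were called, in a comparison of 1 library against 4. The counts over all genes moved as well when 1 library was left out. With MDM4 replicate 1 left out, *ALDOA*, *ENO1*, *LDHA*, *LDHB*, *PFKFB3* and *PGK1* were among those that no longer passed.

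How replicate 3 differed by abundance is given as a description, in classes drawn after the values were seen. Among members of at least 100 FPKM, 7 of 15 (46.7%) were lower and 1 was higher, while of 619 other genes in that class 24.4% were lower and 10.8% higher. Among members between 10 and 100 FPKM, 6 of 19 were lower and 5 higher, against 19.4% and 24.8% of 6203 other genes. The median log2 difference was -0.17 for the abundant members and -0.01 for other abundant genes. Other genes under 10 FPKM, a class that holds no member, had a median of 0.22. The part of abundance in the members' differences was not tested.

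Since FPKM is scaled to length, levels of related genes can be set side by side, and 10 shares were set against each other by a two-sided exact permutation test. For 7 of them replicate 3 lay outside the range of the other 4 libraries, each with an exact p of 0.0667, below which 2 against 4 libraries cannot go, and an adjusted p of 0.0952. *HK2* made up 39.6%, 41.3% and 29.6% of hexokinase in the control and 45.3%, 41.4% and 33.5% in the MDM4 replicates. *EPAS1* made up 45.8%, 42.0% and 55.1% of the HIF alpha subunits in the control and 40.9%, 42.6% and 53.5% in the MDM4 replicates. It was thus the lesser subunit by RNA in replicates 1 and 2 and the greater one in replicate 3, with a summed level of 93.5 and 125 FPKM.

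*PFKM* went from 18.3% to 25.5% of phosphofructokinase on average and *PFKP* from 57.9% to 49.8%, with *PFKL* at 23.9% and 24.7% (exact permutation p = 0.533). *LDHB* went from 30.5% to 35.04% of lactate dehydrogenase, *ENO2* from 3.57% to 4.51% of enolase and *ALDOC* from 4.38% to 4.83% of aldolase. The minor isozyme of the lower pathway thus held more of the total in replicate 3, at summed levels of 1953 against 2059 FPKM for lactate dehydrogenase, 1489 against 1663 FPKM for enolase and 1036 against 1205 FPKM for aldolase. *SLC2A3* of the glucose transporters (34.4% and 35.8%) and *SLC16A3* of the lactate transporters (77.0% and 76.5%) overlapped. Between MDM4 and control no share was without overlap, and adjusted p-values by the exact permutation test were between 0.857 and 0.900, in a design of 3 against 3 libraries that cannot go below an unadjusted 0.1.

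**Figure D5:**
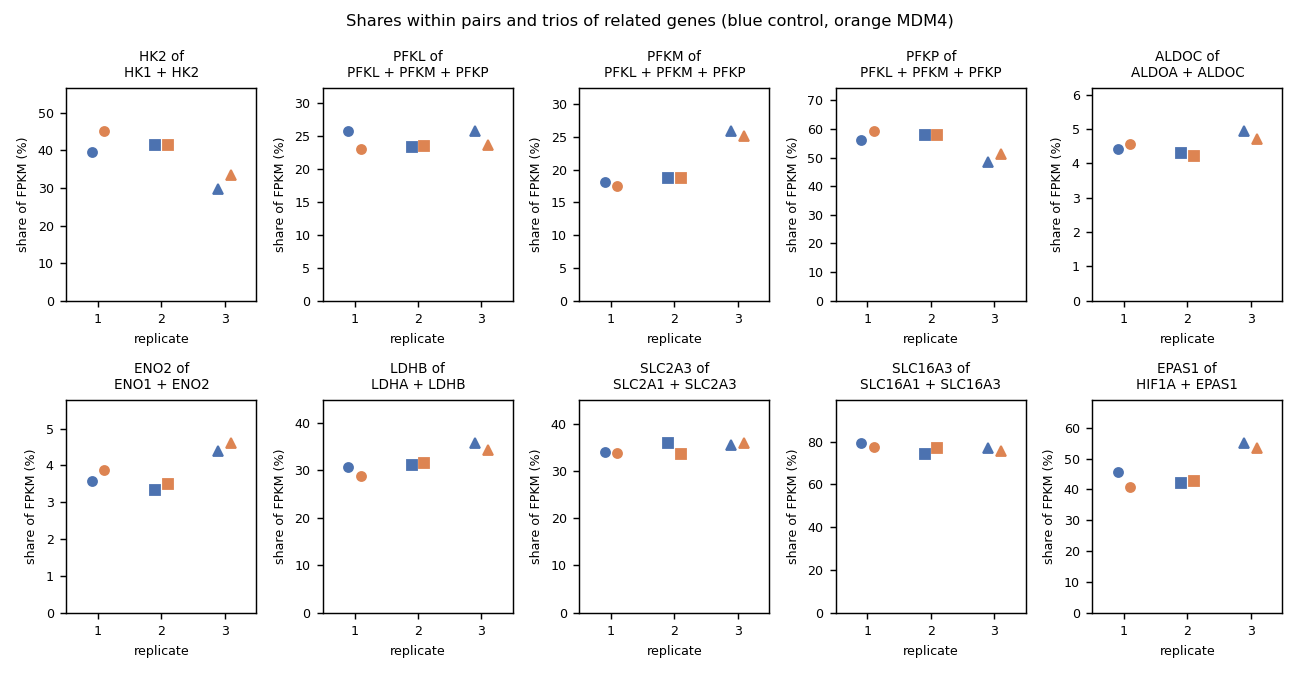
Share of each gene in the summed FPKM of its pair or trio by replicate number, blue for control and orange for MDM4, each axis starting at 0. In replicate 3 *HK2* and *PFKP* lie below and *PFKM*, *LDHB*, *ENO2*, *ALDOC* and *EPAS1* above all libraries of replicates 1 and 2, in both groups.

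Whether the difference between MDM4 and control was unlike in replicate 3 was tested as an interaction. No member passed, against 25 of 12884 genes (0.194%) in limma, and at an unadjusted p under 0.05 there were 0 members and 293 genes (2.27%). The members' values ranged from -0.14 to 0.20 on the log2 scale with standard errors between 0.09 and 0.25. This comparison rests on 1 pair of libraries in replicate 3, and the absence of a call does not show that the differences were equal.

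Other genes around the pathway were read from lists of well-known members, with no call between MDM4 and control in any of the 11 lists. Their counts in replicate 3 stand against the share of all genes, of which 29.6% were higher and 14.6% lower. In that comparison 6 of 28 other HIF targets rose and 5 fell. *STC2*, a secreted glycoprotein, fell from between 124 and 142 FPKM to 59.6 and 62.3 FPKM (log2 -1.08), and *HMOX1*, a heme oxygenase, and *IGFBP3*, a binding protein of insulin-like growth factors, fell with log2 differences of -0.77 and -0.63. Of 13 regulators of HIF, 2 rose and 3 fell. *ARNT*, the partner of the HIF alpha subunits, rose (0.54), and the ubiquitin ligase *SIAH1* (-0.58) and the coactivator *CREBBP* (-0.49) fell.

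Of 22 other glycolytic isozymes and transporters tested, 9 rose and 1 fell in replicate 3, and those with the largest change were weakly expressed. *SLC2A4*, the insulin-responsive transporter, was at 0.341, 0.285 and 1.40 FPKM in the control and at 0.297, 0.403 and 1.37 FPKM in the MDM4 replicates, from 32 to 178 reads. *SLC2A12* and *PDK4*, a kinase that spares glucose, rose with log2 differences of 1.27 and 0.89. Of 7 serine and glycine genes 3 rose and 1 fell, among them *PSPH* (0.39), *SHMT1* (0.20) and *MTHFD1L* (-0.24).

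*MYC*, a transcription factor that drives many glycolytic genes, was at 212, 195 and 117 FPKM in the control and at 205, 213 and 113 FPKM in the MDM4 replicates (log2 -0.84 ± 0.05, adjusted p = 4.83e-06 in limma for replicate 3). Its level was thus low in the same libraries in which *SLC2A1*, *HK2*, *LDHA*, *ENO1* and *PGAM1* were low. In those libraries *GAPDH*, *PKM* and *TPI1* did not pass with FPKM as deposited, and *HK1*, *PFKM* and *LDHB* were higher. The part of *MYC* in these differences was not tested. Of the 6 regulators on that list, *MLXIP* also fell (-0.21) and *MLXIPL*, a sensor of glucose metabolites, rose (0.49). Neither of 2 glucose-sensing targets of MLXIP passed. Of 15 integrated stress response genes 4 rose and 4 fell, led by *ATF5* (-0.85), *GDF15* (0.75) and *SESN2* (0.64). Of 8 proliferation genes 5 fell, among them *CDK1* (-0.25), *CCNB1* (-0.25) and *MKI67* (-0.20).

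The markers of cell identity tested were few, and their counts stand against 29.6% of all genes higher and 14.6% lower. Of 7 colon epithelial markers tested *VIL1* rose (0.50) and *KRT8* fell (-0.15) in replicate 3, with a summed level of the list between 4221 and 4902 FPKM over all libraries. Of 4 tested markers of other cell types *COL1A1* rose (0.92), from between 1.60 and 2.33 FPKM to 3.71 and 3.80 FPKM. *CD68*, *CD14* and *ACTA2* did not pass, at 4.26, 0.813 and 3.34 FPKM in control replicate 3 and 4.29, 0.647 and 4.35 FPKM in MDM4 replicate 3. *VWF*, too low to be tested, was at 0.616 and 0.633 FPKM in replicate 3 and between 0.316 and 0.438 FPKM in the others. *CD3E* lay between 0.0739 and 0.200 FPKM over all libraries. *PTPRC*, *PECAM1*, *COL1A2* and *DCN* stayed at or near 0 in replicate 3 too.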

How the data were processed

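RNA sequencing of SW480 cells was used, 3 control and 3 MDM4 libraries (oligo(dT) enrichment, HiSeq2000). The authors deposited FPKM for 19225 gene symbols, of which 2036 were 0 throughout. The aligner, build and annotation are not given in the sources used here. Columns carry a letter and a number, read as group and replicate number. The group labelled "exercised" was read as MDM4, being the only group other than control. Reads were recovered from the FPKM, which are whole reads over a whole gene length and a library total, and used for depth and voom only. A solution (tolerance 0.02 reads) was found for 16537 of 16537 genes above 0 in 2 or more libraries, which does not show that each is the true count. In simulated data 98.3% of 1972 genes were recovered exactly.

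Genes under a mean of 0.5 FPKM were left out, and for the other 12884 the log2(FPKM + 0.1) entered limma (version 3.58.1, R 4.3.3, with lmFit, eBayes with trend and Benjamini-Hochberg adjustment). The MDM4 comparison had no block, and the replicate 3 comparison had group as a covariate. A gene was called at an adjusted p under 0.05. A fold change is on this log2 scale. The scripts were tested on simulated data. Shares were compared with exact permutation tests (scipy 1.17.1). Tables and plots used Python 3.11.15, numpy 2.4.6, pandas 2.3.3 and matplotlib 3.10.9.

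Same-numbered libraries deviated together, with correlations across genes of 0.458, 0.451 and 0.783, and by the rule used here they were taken as pairs. Replicates 1 and 2 correlated about as much across numbers (0.462 and 0.439), so these values set apart only replicate 3. The members and the other lists were chosen with earlier results of these data known, so counts describe them. Named are all members, *MDM4*, the most abundant epithelial marker and, from each other list, at most the 3 called genes with the largest difference. Other markers and the gene of each step or class were named after their values were seen. Alternatives were pseudocounts of 0.01 and 1, no filter or 2 FPKM, TPM, median ratio and quantile scaling, eBayes without trend, voom, a replicate block, a replicate 3 term, no group term, replicates 1 and 2 alone, a fold threshold and each library left out. One of the other lists is not reported here.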

Additional observations from a re-analysis of the deposited data

How the results depend on the processing

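Between MDM4 and control, no member was called under any of 19 alternatives, and 10 of 34 members kept 1 direction under all of them. Counts of all genes called higher and lower were 0 and 0, and 1 and 1 with the replicate block and with a term for replicate 3. They were 5 and 24 with voom and the replicate block, 3 and 66 over replicates 1 and 2 only, and from 0 to 2 and from 0 to 19 with 1 library left out. In replicate 3, members called higher and lower were 6 and 13. The lower count was 20 with median ratio scaling (background 21.5%). With eBayes without trend, *ALDOA*, *BNIP3*, *ENO1*, *LDHA*, *PFKFB3*, *PGK1* and *SLC2A1* no longer passed as lower, and *LDHB* and *PFKFB4* no longer passed as higher. A threshold of 1 log2 unit left 0 and 0. With 1 library left out the counts ran from 3 to 7 and from 3 to 15. Over all genes they were 3808 and 1877, 263 and 64 with that threshold, and from 1504 to 4259 and from 920 to 2165 with 1 library left out. The interaction gave 24 and 1, and 5 and 0 with eBayes without trend. The share of *PFKP* in replicate 3 differed by -8.05 percentage points, and by -9.55 to -6.56 with 1 library left out. Leaving out a replicate 3 library leaves 1 library against 4, which is assumed to vary like the others. The cause of these shifts was not tested, beyond fewer libraries where 1 is left out.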
